A study of Rattus norvegicus with 15 samples.

Results

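The 36 genes described here handle amino acids in muscle, and they were read in the gastrocnemius of rats after a low-protein diet and after later feeding on a control diet. They fall into 3 classes, namely 19 genes of the Atf4 pathway, 9 amino acid transporters and 8 enzymes of branched-chain amino acid and nitrogen metabolism. A probe set, which is the group of short array probes that reads 1 transcript, was counted as a member when its only gene symbol was one of these 36, and 52 of the 31042 probe sets tested qualified. The whole array holds 14217 genes with a probe set of their own.

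All animals were male Wistar rats bought at 3.5 weeks of age, fasted for 16 h before sampling, and read on 1 Affymetrix rat expression array each. CN (n = 4) received a diet with 15% casein for 4 weeks, and LP (n = 4) a diet of equal calories with 8% casein for the same 4 weeks. CN-R (n = 3, replicates 1, 2 and 4) and LP-R (n = 4) received those diets for 4 weeks and were sampled on day 84 after a later period. According to the study's methods that later period was spent on the control diet in both groups, whereas the sample labels say that the earlier diet went on. The arrayed rats were picked for a body weight near the average of their group, so the spread between arrays may be smaller than between rats at large. CN-R replicate 4 is a control by its title and description, but its treatment field names protein restriction, and values are therefore also given without it.

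The values are log2 signals from FARMS, a method that weighs the probes of a set by the signal they share across arrays. It returned nearly the same value on every array (SD up to 0.01) for 27068 of 31042 probe sets among CN and LP, and for 27942 among CN-R and LP-R. Such a constant value does not show that a gene was unchanged, because no difference can be read from it in either direction. The early arrays (CN and LP) and the late arrays (CN-R and LP-R) were taken from their values to be summarized apart, so CN was never compared with CN-R. Any 2 arrays of a set correlated at 0.997 to 0.999 over all probe sets. The skeletal muscle markers Acta1 (skeletal actin) and Ckm (muscle creatine kinase) read 14.07 and 14.03 on the log2 scale in both CN and LP.

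When a cell lacks an amino acid, uncharged tRNA activates the kinase GCN2, which phosphorylates the initiation factor eIF2. Most translation slows, but translation of the transcription factor Atf4 increases, and Atf4 with its partners switches on genes for amino acid synthesis, transport and stress. Muscle is also the main site of the first step of branched-chain amino acid breakdown, in which Bcat2 removes the amino group and the branched-chain ketoacid dehydrogenase complex (Bckdha, Bckdhb and Dbt, held back by the kinase Bckdk) then commits the carbon skeleton to oxidation. The nitrogen leaves muscle largely as glutamine, made by Glul, and as alanine, made by the alanine transaminases.

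Atf4 acts through a composite element in which a C/EBP site and an ATF site are joined. The element TGATGNAAN was searched on both strands of RefSeq promoter windows of assembly GRCr8, which run from 250 bases before to 50 bases after each gene's start. No other motif was searched. Atf3, Slc1a5 and Bckdha had no window and were not searched. Of 33 member genes with a window, 6 held a match (18.2%), against 2.41% of the 11733 array genes with a window and 3.97% of all 33469 windows. The list was drawn up partly from known Atf4 targets, so the higher share is no independent result. The matching stretches are printed because they show which members carry the element beside how those members read in LP. Each is given 5′ to 3′ on the gene's strand, with the match in capitals.
Fgf21: agacccccccATTGCATCAttcgtccaggc
Got1: cactgcattgGTTGCATCAtacaagcctcc
Chac1: cttctccgccGTTGCATCActcctgctagg
Trib3: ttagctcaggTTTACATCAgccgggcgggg
Slc38a1: ggggaaactcTGATGCAACcaaccagtcct
Slc7a1: ggcgcgcggcTGATGAAACcggctcggatt

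In GRCr8 these stretches lie at chr1:105221501-105221530 (Fgf21, minus strand), chr1:252330020-252330049 (Got1, minus strand), chr3:126795953-126795982 (Chac1, plus strand), chr3:161275536-161275565 (Trib3, minus strand), chr7:129681524-129681553 (Slc38a1, minus strand) and chr12:11664448-11664477 (Slc7a1, plus strand). All are upstream of the start of transcription in that annotation. The matches of Chac1 and Got1 are the same, GTTGCATCA, and both cover bases -168 to -160 from the start. The match of Slc38a1 is that same element read from the other strand. In the comparison of LP with CN, Chac1 was called lower and Slc38a1 higher, Got1 was not called, and the probe sets of Fgf21, Trib3 and Slc7a1 were nearly constant. A match is a description of the letters and not of binding.

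After 4 weeks on the low-protein diet, 10 of the 36 genes were called, of which 7 were lower in LP than in CN and 3 were higher. The lower genes were Ddit4, Chac1, Cebpb, Slc38a4, Bcat2, Dbt and Glul, and the higher genes were Atf3, Slc38a1 and Gpt2. Each of the 3 classes held genes called in both directions. Calls were made with rank products, the study's own test, which ranks the difference of every probe set in each of the 16 pairs of an LP and a CN array and calls a probe set at an estimated false positive share (pfp) up to 0.05. Of the 52 member probe sets, 25 varied, and 12 of these were called (48%, with 3 higher and 9 lower). Over the array 3.26% of all probe sets were called, 1.68% higher and 1.58% lower, and 25.5% of the 3974 that varied, 13.1% higher and 12.4% lower. The members were chosen with earlier results of these data known, so no share or median of theirs is an independent result. Several of the 12 belong to Glul, and by gene 10 of the 20 varying members were called. Among the array's 14217 genes 2423 varied by the probe set of highest mean signal. Of the 14217, 365 had a probe set called higher and 343 one called lower. With limma, which sets each difference against the spread between the arrays, no member and no other probe set was called. The smallest adjusted p of a member was 0.628, and 4 member probe sets had an unadjusted limma p under 0.05, against 7.54% of all probe sets and 14.5% of those that varied. When rank products were run over the varying probe sets alone, 1 member was called, Ddit4, among 31 probe sets in all.

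**Figure D1:**
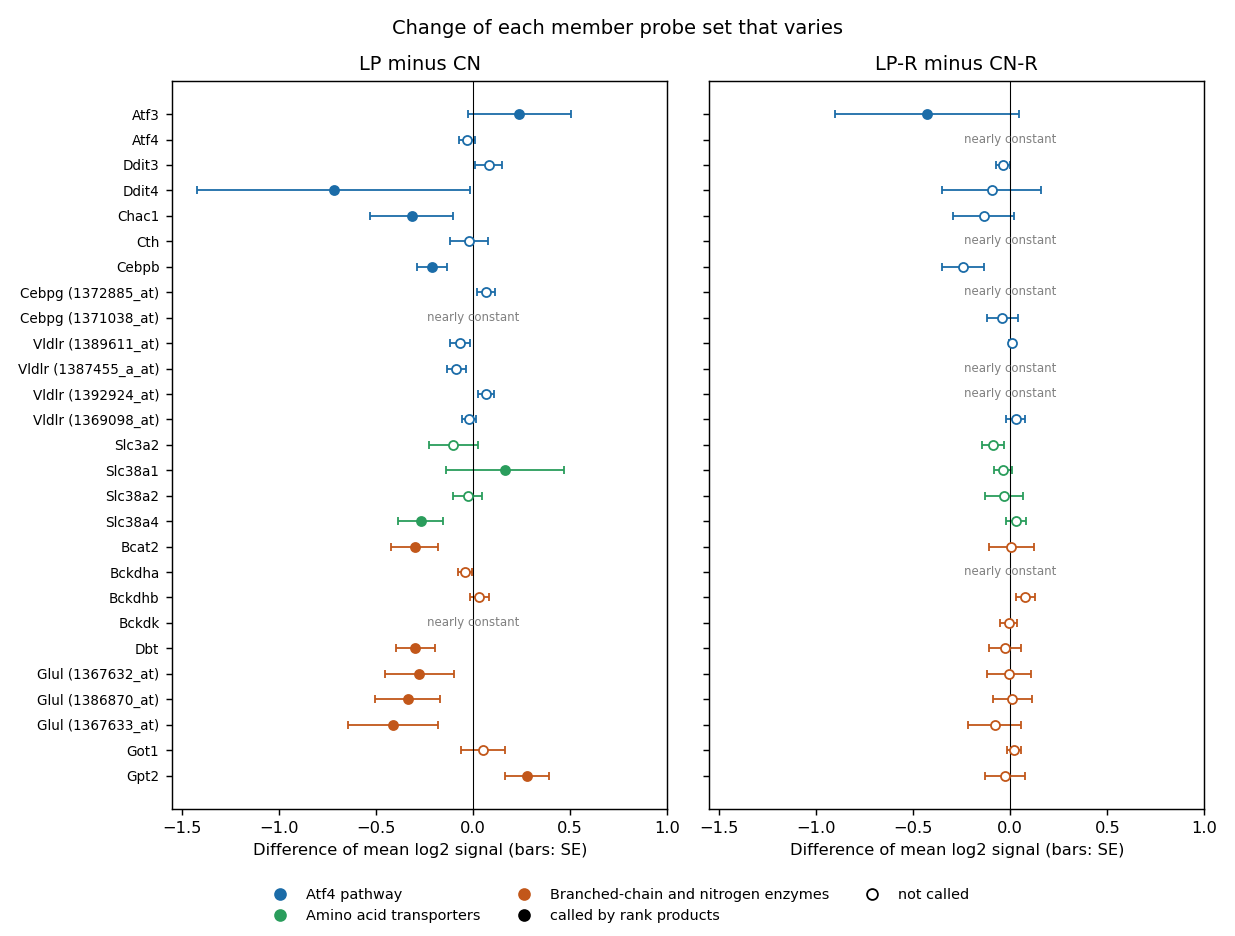
The difference of the group means in log2 signal is plotted for each member probe set that varied in either comparison, LP minus CN on the left and LP-R minus CN-R on the right, with bars for the SE of the difference. Filled points were called by rank products and open points were not, and the colours mark the 3 classes. On the left the 12 filled points lie between -0.72 (Ddit4) and 0.28 (Gpt2), and on the right Atf3 at -0.43 is the 1 filled point.

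The groups did not overlap in 2 of the 25 varying member probe sets, those of Slc38a4 and Bcat2, both lower in LP. The same was found for 7.9% of all varying probe sets, 2.49% with LP below CN and 5.41% with LP above. The median change over the 20 member genes that varied was -0.04, and 13 of the 20 (65%) lay below 0. Over all 2423 genes that varied the median change was 0.03 and 36.8% lay below 0. By class the medians were -0.03 for 9 Atf4 pathway genes, -0.06 for 4 transporters and -0.04 for 7 enzymes. With 1 array left out they became -0.08 for the Atf4 pathway (LP replicate 2), -0.03 for the transporters and -0.007 for the enzymes (both LP replicate 1). A gene with several probe sets entered with the one of highest mean signal.

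In the Atf4 pathway, 1 gene was called higher in LP and 3 lower, and 10 of the 19 genes were nearly constant. Atf4 itself (1367624_at) read 11.56 ± 0.06 in CN and 11.53 ± 0.05 in LP (SD, n = 4 each), a difference of -0.03 with an SE of 0.04. Atf4 is controlled mainly at translation, and the array reads its mRNA only. The 10 nearly constant genes included Asns (asparagine synthetase), Trib3 (a pseudokinase induced by Atf4), Sesn2 (a leucine sensor of the mTORC1 pathway), the secreted factors Fgf21 and Gdf15, the serine synthesis enzymes Phgdh, Psat1 and Psph, and the mitochondrial one-carbon enzymes Shmt2 and Mthfd2. For these genes the arrays give no reading of a change.

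Ddit4 (1368025_at) encodes Redd1, an inhibitor of mTORC1, and had the largest change of the 25 varying member probe sets. Its log2 signals were 10.32, 9.63, 9.11 and 8.43 in CN replicates 1 to 4 and 10.13, 9.01, 7.64 and 7.83 in LP replicates 1 to 4. The lowest arrays were LP replicates 3 and 4, while LP replicate 1 lay above 3 of the 4 CN arrays, so the groups overlapped. The change was -0.72 (SE 0.70), or 1.64-fold, with an exact permutation p of 0.314 (two-sided). The call held without each of the 8 arrays, but the change became -1.21 when LP replicate 1 was left out, -0.38 for LP replicate 3, -0.44 for LP replicate 4 and -0.40 for CN replicate 1.

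In CN, LP and LP-R replicates 1 and 2 of Ddit4 lay above replicates 3 and 4. CN-R, without a replicate 3, read 8.03 and 8.27 in replicates 1 and 2 and 7.85 in replicate 4. The labels do not say what the replicate numbers mark. Replicates 1 and 2 were separated from 3 and 4, in the same direction in CN and LP, in 4 of 25 varying member probe sets (16%) and in 16.3% of all varying probe sets. Besides Ddit4 these were Cebpg, which was higher in replicates 1 and 2, and Slc38a1 and Got1, which were lower.

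**Figure D2:**
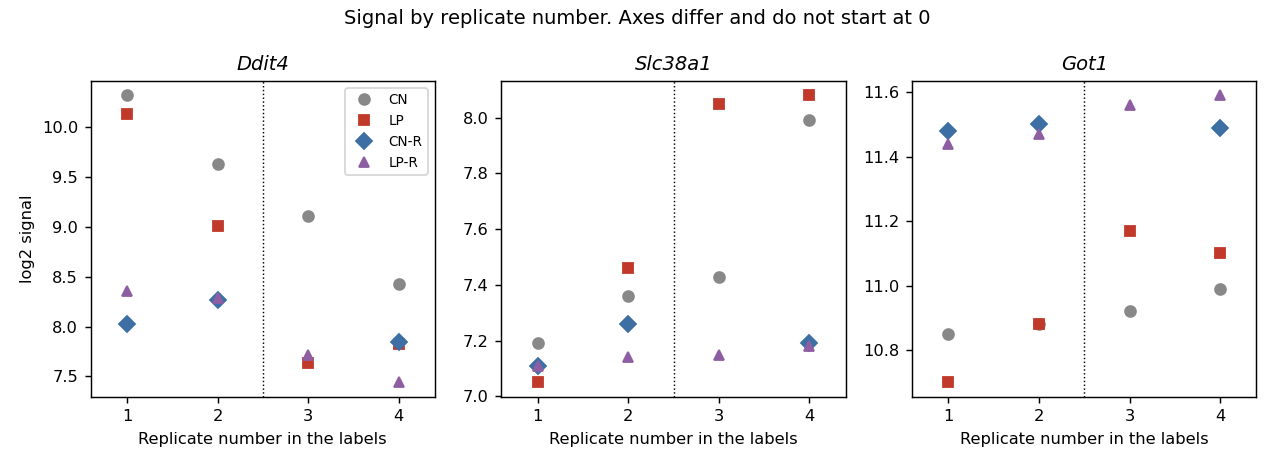
Log2 signals of Ddit4, Slc38a1 and Got1 are plotted against the replicate number in the labels, with 1 point for each array and a symbol for each group. In CN and LP the Ddit4 points of replicates 1 and 2 (9.01 to 10.32) lie above those of replicates 3 and 4 within each group, and for Slc38a1 and Got1 they lie below them. The early and late groups were taken to come from separate summaries, and their levels were not compared.

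Chac1 (1389573_at), which degrades glutathione and is a late target of the Atf4 pathway, read 9.97, 10.46, 10.30 and 10.11 in CN and 9.42, 9.81, 10.08 and 10.27 in LP. LP replicates 1 and 2 were below all CN arrays and replicates 3 and 4 were within their range. The change was -0.32 (SE 0.21, exact permutation p = 0.171), and it was -0.16 without LP replicate 1. The call was lost without CN replicate 2 or CN replicate 3.

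Cebpb (1387087_at) encodes C/EBP beta, a transcription factor that can pair with Atf4. Its signals were 11.88, 12.04, 11.93 and 11.86 in CN and 11.68, 11.89, 11.72 and 11.57 in LP. A single LP array, replicate 2, reached into the CN range. The change was -0.21 (SE 0.08, exact permutation p = 0.0857), and limma gave an unadjusted p of 0.0293 that did not pass adjustment over all probe sets. Removal of LP replicate 4, or of CN replicate 1, 2 or 3, ended the call.

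Atf3 (1369268_at), a stress-induced transcription factor downstream of Atf4, was the Atf4 pathway gene called higher. It read 10.46, 10.02, 10.69 and 10.33 in CN and 10.65, 11.16, 10.58 and 10.07 in LP. LP replicate 2 was the highest of the 8 arrays, and LP replicate 4 was lower than 3 of the CN arrays. The change of 0.24 (SE 0.27, exact permutation p = 0.400) became 0.06 when LP replicate 2 was left out, 0.12 for CN replicate 2 and 0.42 for LP replicate 4. Removal of LP replicate 1, 2 or 3 or of CN replicate 2 ended the call. The study itself listed Atf3 among genes picked on these samples, so its call is not independent evidence of its direction.

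The other varying genes of the pathway were not called. Ddit3, which encodes the stress factor Chop, differed by 0.08 (SE 0.07), Cebpg, a further C/EBP partner of Atf4, by 0.07 (SE 0.05), and Cth, which makes cysteine, by -0.02 (SE 0.10). The 4 probe sets of Vldlr, the very low density lipoprotein receptor, ran from -0.09 to 0.06 and did not share a sign. Over the 9 varying Atf4 pathway genes the mean deviation of each array from the CN mean ran from -0.26 to 0.03 in LP and from -0.16 to 0.08 in CN.

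**Figure D3:**
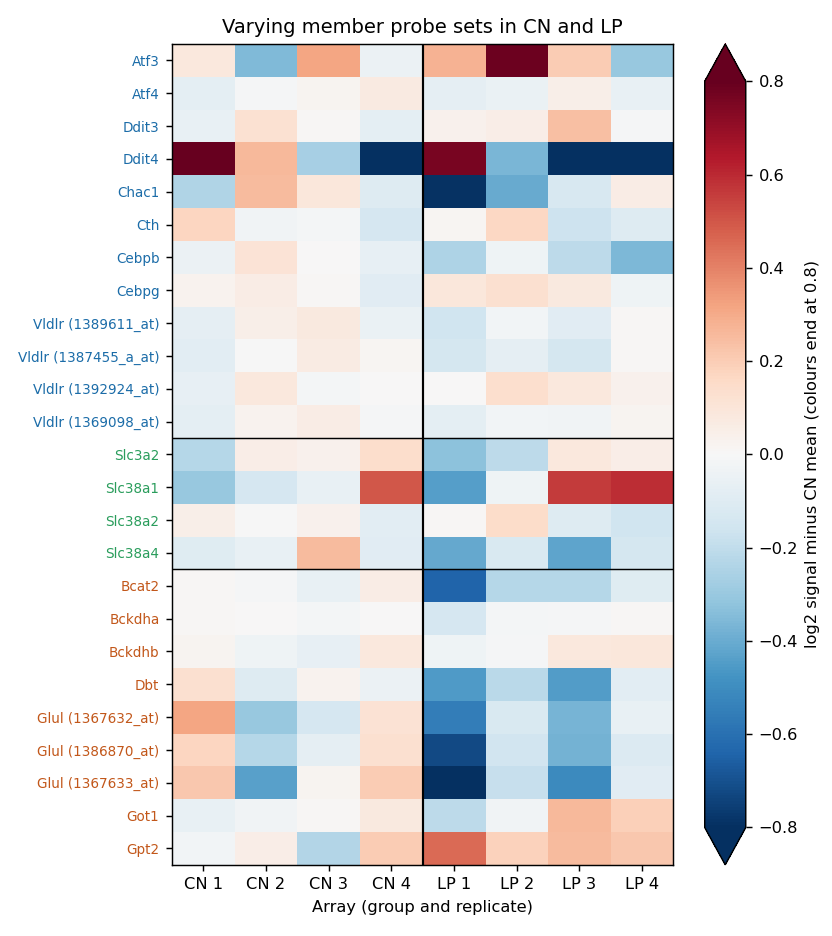
Each cell gives the log2 signal of a varying member probe set on 1 array minus the mean of the 4 CN arrays, with red above and blue below that mean and colours that end at 0.8. Rows are grouped by class and columns by group. Ddit4 in LP replicates 3 and 4 lies beyond the blue end of the colours. So do Ddit4 in CN replicate 4 and probe set 1367633_at of Glul in LP replicate 1. LP replicate 1 is the lowest of the 8 arrays in 11 of the 25 rows.

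Of the 9 amino acid transporters, Slc38a4 was called lower in LP and Slc38a1 higher, 2 varied without a call, and 5 were nearly constant. Both called genes encode sodium-coupled neutral amino acid transporters of the same family. The 5 constant genes were Slc7a5 and Slc7a11, the light chains of the leucine and the cystine exchangers, Slc7a1 (cationic amino acids), Slc1a5 (glutamine) and Slc36a1 (a proton-coupled carrier of lysosomes).

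Slc38a4 (1369074_at, also known as Snat4) read 10.32, 10.36, 10.67 and 10.33 in CN and 10.01, 10.30, 10.00 and 10.28 in LP. All LP arrays were below all CN arrays, by a narrow margin between LP replicate 2 and CN replicate 1. The change was -0.27 (SE 0.12), or 1.21-fold, and the exact permutation p of 0.0286 is the smallest that 4 against 4 arrays allow. CN replicate 3 stood apart from the other CN arrays, and without it the change was -0.19 and the call was lost.

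Slc38a1 (1372921_at, also known as Snat1) read 7.19, 7.36, 7.43 and 7.99 in CN and 7.05, 7.46, 8.05 and 8.08 in LP. The lowest and the highest of the 8 arrays were both LP arrays. The change of 0.17 (SE 0.30, exact permutation p = 0.629) was smaller than the spread within either group, and it became 0.37 when LP replicate 1 was left out, 0.33 for CN replicate 4, 0.04 for LP replicate 3, 0.03 for LP replicate 4 and 0.06 for CN replicate 1. Removal of LP replicate 2, 3 or 4 or of CN replicate 1 ended the call. Its other 2 probe sets were nearly constant.

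Slc38a2, the member of this family best known as an Atf4 target, differed by -0.03 (SE 0.08). Slc3a2, the heavy chain that carries Slc7a5 and Slc7a11 to the membrane, differed by -0.10 (SE 0.13). Neither was called.

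Among the 8 enzymes, Bcat2, Dbt and Glul were called lower in LP and Gpt2 was called higher. These 4 genes account for 6 of the 9 varying enzyme probe sets (66.7%), beside 25.5% of all varying probe sets. All probe sets of Glul are among the 6, and by gene 4 of the 7 varying enzymes were called. The enzymes too were chosen with earlier results known, so their higher share is no independent result. The lower genes cover the first transamination of branched-chain amino acids (Bcat2), the transacylase core of the ketoacid dehydrogenase (Dbt) and glutamine synthesis (Glul).

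Bcat2 (1386928_at) read 8.71, 8.69, 8.64 and 8.76 in CN and 8.06, 8.47, 8.47 and 8.60 in LP. The CN arrays lay close together and every LP array was below them. The change was -0.30 (SE 0.12), or 1.23-fold, with an exact permutation p of 0.0286 and an unadjusted limma p of 0.041. The call held without each of the 8 arrays, and the change was -0.19 without LP replicate 1.

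Dbt (1373201_at) read 10.16, 9.93, 10.06 and 9.99 in CN and 9.58, 9.82, 9.59 and 9.95 in LP. LP replicate 4 overlapped with the lowest CN array and the other LP arrays were below it. The change was -0.30 (SE 0.10, exact permutation p = 0.0571, unadjusted limma p = 0.0221), and the call was lost without CN replicate 1. The catalytic subunits of the same complex were not called, with -0.04 (SE 0.03) for Bckdha and 0.03 (SE 0.05) for Bckdhb. Bckdk, the kinase that inhibits the complex, was nearly constant in CN and LP.

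All 3 probe sets of Glul were called lower. On 1386870_at the signals were 11.77, 11.37, 11.53 and 11.73 in CN and 10.88, 11.45, 11.22 and 11.49 in LP. On 1367632_at they were 11.99, 11.37, 11.54 and 11.79 in CN and 11.12, 11.55, 11.30 and 11.61 in LP, and on 1367633_at they were 10.40, 9.75, 10.21 and 10.39 in CN and 9.32, 10.00, 9.68 and 10.10 in LP. The 3 probe sets read the same RNA and gave the same picture, with LP replicate 1 lowest, LP replicate 3 next and CN replicate 2 below the other CN arrays.

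The changes of the 3 Glul probe sets were -0.34 (SE 0.17), -0.28 (SE 0.18) and -0.41 (SE 0.23) in that order, with exact permutation p values of 0.114, 0.200 and 0.114. Without LP replicate 1 the changes of 1386870_at and 1367633_at were -0.21 and -0.26. The call of 1367633_at held without each array, that of 1386870_at was lost without CN replicate 1, and that of 1367632_at was lost without LP replicate 1, CN replicate 1 (change -0.17) or CN replicate 4.

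Gpt2 (1382232_at), a mitochondrial alanine transaminase, read 8.39, 8.47, 8.18 and 8.62 in CN and 8.87, 8.60, 8.67 and 8.63 in LP. Only CN replicate 4 reached into the LP range. The change was 0.28 (SE 0.11, exact permutation p = 0.0571, unadjusted limma p = 0.0404), and the call was lost without LP replicate 1. The other probe set of Gpt2 was nearly constant. Got1, the cytosolic aspartate transaminase, differed by 0.05 (SE 0.11) and was not called.

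**Figure D4:**
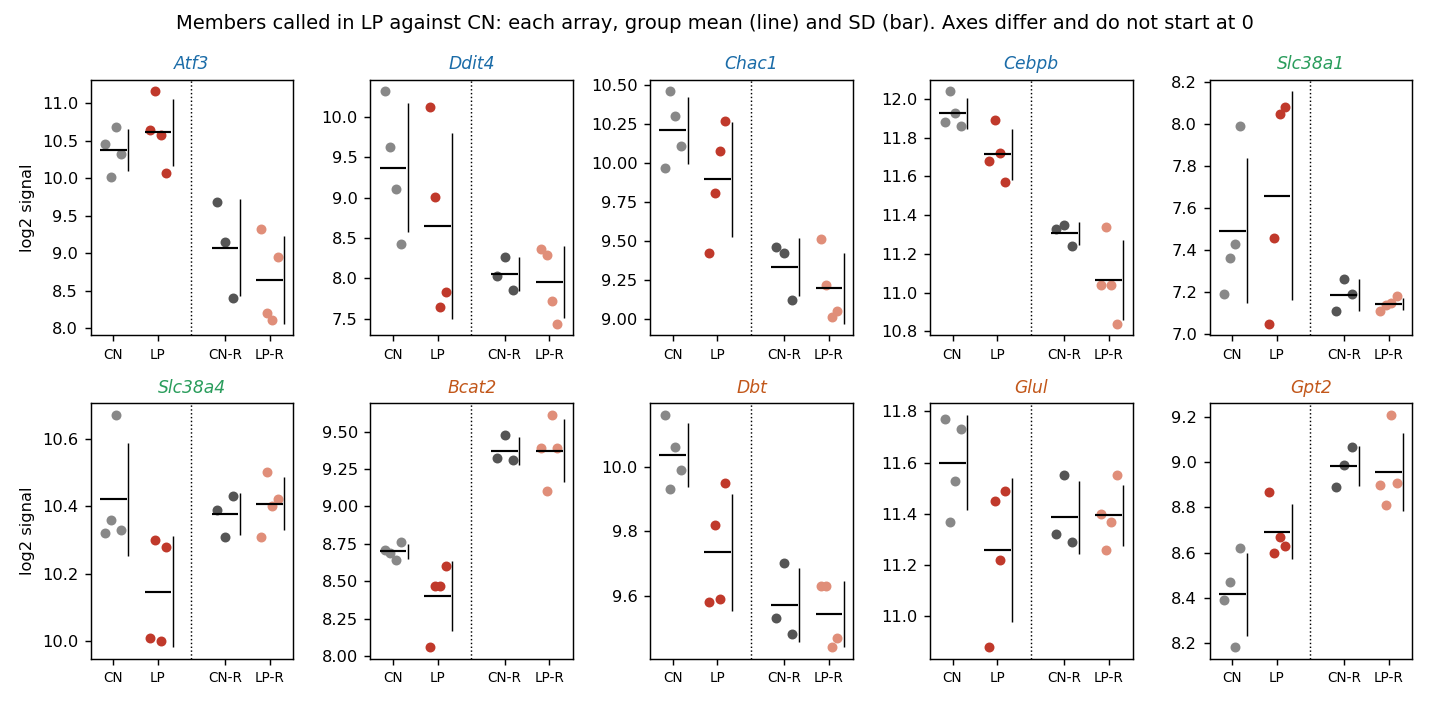
Log2 signals of the 10 genes called in LP against CN are plotted for each array in the 4 groups, with the group mean as a line and the SD as a bar. A dotted line parts the early and late arrays, whose levels were not compared. Glul is shown by probe set 1386870_at. In Slc38a4 and Bcat2 all LP points lie below all CN points, and in the other 8 panels the early groups overlap.

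LP replicate 1 was the lowest of the 8 arrays in 11 of the 25 varying member probe sets (44%) and in 15.6% of all varying probe sets. Without it 9 member probe sets were called, 1 higher and 8 lower, and without CN replicate 1, 7 were called. The part of these arrays in the results was otherwise not tested.

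Genes of the same pathways outside the 36 were counted from further lists. These lists and the marker lists below were also chosen with earlier results of these data known. Over the array 25.5% of varying probe sets were called in LP against CN, and 36.8% of varying genes lay below 0. Of 19 measured genes of the wider integrated stress response 6 varied, 4 of them below 0. The 1 called was Eif4ebp1, an inhibitor of cap-dependent translation and an Atf4 target, at -0.24 (SE 0.14). None of 21 genes of amino acid sensing by mTORC1 (4 varied, 1 below 0) and none of 23 further amino acid transporters (3 varied, 0 below 0) was called. Of 19 further genes of branched-chain breakdown 8 varied, 7 of them below 0, and 2 were called lower, Ivd (isovaleryl-CoA dehydrogenase) at -0.19 (SE 0.13) and Acadsb (short/branched-chain acyl-CoA dehydrogenase) at -0.13 (SE 0.06). Of 18 further nitrogen genes 9 varied, 6 of them below 0. Ampd3 (AMP deaminase) was called lower at -0.36 (SE 0.12), with all LP arrays below all CN arrays. In 1 gene of this list all LP arrays lay above all CN arrays. Of all varying probe sets, 2.49% were so separated with LP below CN and 5.41% with LP above. Odc1 (the first enzyme of polyamine synthesis) was called higher at 0.25 (SE 0.14). limma called no gene of these further lists.

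Markers of other cell types also differed between LP and CN, and in whole muscle fewer cells of a type and less RNA per cell cannot be told apart. Of 9 endothelial markers measured 7 varied, 5 above and 2 below 0, and 4 were called higher, beside 13.1% of all varying probe sets. Their level, as the mean deviation from CN over the 7 varying genes, ran from 0.01 to 0.30 in LP and from -0.09 to 0.13 in CN. Of 8 fibroblast markers 3 were called lower (-0.14 to -0.02 in LP, -0.16 to 0.18 in CN), while 4 of the 7 that varied lay above 0 and their median change was 0.04. Of 7 adipocyte markers 1 was called higher (-0.13 to 0.45 in LP, -0.19 to 0.23 in CN). All 9 slow fiber markers lay below 0 without a call (-0.26 to 0.003 in LP, -0.15 to 0.10 in CN). Of 11 fast fiber markers 2 varied, of 9 macrophage markers 2, and of 3 blood markers 1, none of them called. The part of these markers in the changes of the 36 genes was not tested.

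On day 84, 1 of the 52 member probe sets was called in LP-R against CN-R, that of Atf3, which was lower. Of the 52, 21 varied among the late arrays, and the groups overlapped in all 21. Over the array 0.515% of all probe sets were called (0.345% higher and 0.171% lower), and of the 3100 that varied 5.16% (3.45% higher and 1.71% lower). The groups did not overlap in 3.84% of the varying ones, with LP-R above CN-R in 0.516% and below in 3.32%. The array-wide calls split into 107 higher and 53 lower, but into 54 higher and 133 lower when the permuted ranks of both directions were pooled and into 19 and 38 with pairs that shared no array. limma called no probe set, with a smallest adjusted p of 0.969 among members. An unadjusted limma p under 0.05 was found for 0 of the 21 varying member probe sets, beside 3.65% of all that varied, and for 2 nearly constant ones of Sesn2 and Slc38a1, which give no readable change (5.04% of all probe sets).

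Atf3 read 9.68, 9.15 and 8.40 in CN-R replicates 1, 2 and 4 and 9.32, 8.21, 8.11 and 8.95 in LP-R replicates 1 to 4. The CN-R arrays spanned most of the LP-R range. The change was -0.43 (SE 0.47, exact permutation p = 0.400, where 4 against 3 arrays allow 0.0286 at best). It was -0.77 without CN-R replicate 4, -0.13 without CN-R replicate 1, -0.65 without LP-R replicate 1, -0.28 without LP-R replicate 2 and -0.25 without LP-R replicate 3, and the call was lost without 5 of the 7 arrays. Without CN-R replicate 4, whose labels conflict, 1 member was called, Bckdhb, which was higher. With that array counted as LP-R, Atf3 was called lower at -0.82 and Bckdhb higher.

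Cebpb read 11.33, 11.35 and 11.24 in CN-R and 11.04, 11.34, 11.04 and 10.84 in LP-R. LP-R replicate 2 lay within the CN-R range and the other LP-R arrays below it. The change of -0.24 (SE 0.11, exact permutation p = 0.114) was not called, with a pfp of 0.0807, and it became the 1 called member without LP-R replicate 2. Ddit4 differed by -0.10 (SE 0.26) and Chac1 by -0.14 (SE 0.16). In LP-R the Ddit4 signals were 8.36, 8.29, 7.72 and 7.44 and in CN-R 8.03, 8.27 and 7.85, without a call.

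The transporters and enzymes called in LP were not called in LP-R. Slc38a4 read 10.39, 10.31 and 10.43 in CN-R and 10.31, 10.50, 10.40 and 10.42 in LP-R, a difference of 0.03 (SE 0.05). Bcat2 differed by 0.01 (SE 0.12), Dbt by -0.03 (SE 0.08), Gpt2 by -0.03 (SE 0.10), Slc38a1 by -0.04 (SE 0.05) and the 3 probe sets of Glul by -0.08 to 0.01. Bckdhb, with 0.08 (SE 0.05), had the highest difference above 0 of the varying members and was not called with all 7 arrays. The median change over 17 varying member genes was -0.03, and over all 1755 varying genes -0.02. By class it was -0.12 for 6 Atf4 pathway genes, -0.04 for 4 transporters and 0.01 for 7 enzymes, and the sign of the last was not stable (-0.02 to 0.04 with 1 array left out). The Atf4 pathway median ran from -0.23 without LP-R replicate 1 (-0.22 without CN-R replicate 4) to -0.05 without LP-R replicate 4, and that of the transporters from -0.06 without CN-R replicate 4 to -0.01 without LP-R replicate 4.

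Of the further lists, Odc1 alone was called in LP-R, higher by 0.18 (SE 0.14). Among the marker lists, the slow fiber marker Myh7 and the adipocyte marker Cfd were called lower and the fast fiber marker Myh1 and the macrophage marker Lyz2 higher. Of all varying probe sets 3.45% were called higher and 1.71% lower. All 9 slow fiber and all 3 varying adipocyte markers lay below 0, but so did 3 of 4 varying fast fiber markers (median -0.04). Over the array 67.2% of the 1755 varying genes lay below 0. Of 2 varying macrophage markers, Lyz2 lay above 0 and the other below. The groups did not overlap in either of these, nor in Cfd. The same was found for 3.84% of all varying probe sets, 0.516% with LP-R above CN-R and 3.32% below. The slow fiber level ran from -0.33 to 0.04 in LP-R and from -0.13 to 0.08 in CN-R.

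A call in LP and none in LP-R does not show that the changes differed, so the difference itself, LP minus CN less LP-R minus CN-R, was tested by exact permutation over 2450 splits of both sets of arrays. No member passed after Benjamini-Hochberg adjustment over all probe sets, nor did any other probe set. Slc38a4 had an unadjusted exact permutation p of 0.0445 for a difference of -0.30 (adjusted p = 0.828), and it was the 1 member under 0.05 among those that varied in either set, against 9.22% of the 5001 probe sets that varied in either set. For Bcat2 the difference of the changes was -0.31 and for Ddit4 -0.62, neither with an exact permutation p under 0.05.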

How the data were processed

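RNA of the gastrocnemius of 15 rats was measured, 1 array each. The authors made the deposited log2 signals with FARMS in R and took calls from rank products, per the study's methods. Separate runs for the early and the late arrays were taken from the values and are not stated there. No further normalization was applied here. Gene symbols came from GEO's platform annotation: of 31042 probe sets left after removal of array controls, 20826 carry 1 symbol, 436 several and 9780 none. The methylation arrays were not analysed here. No CN-R replicate 3 is among the 15 samples.

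Groups were taken from the labels. The titles call the replicates biological. Rank products were written in Python 3.11.15 (numpy 2.4.6, pandas 2.3.3) over all pairs of arrays (16 early, 12 late), with 100 permutations within arrays and seed 1. Each direction had its own null, and a probe set was called at a pfp up to 0.05. The permutations treat every probe set as varying alike, and all 1012 early and all 160 late calls fell on probe sets that varied. limma 3.58.1 ran in R 4.3.3 with Benjamini-Hochberg adjustment over all probe sets. Exact permutation tests were two-sided over 70 early or 35 late splits. The functions were tested on simulated data. A probe set with an SD over 0.01 was taken to vary. The number of arrays limits the precision.

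The 36 members and all gene lists were chosen with earlier results of these data known. All members are named, array values are given for members called or not overlapping in either comparison, and of each further pathway list up to 4 called genes are named. Promoter sequences came from RefSeq (GRCr8). Alternatives covered the test, the scaling, filters, the null, the pairing and each array left out.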

Additional observations from a re-analysis of the deposited data

Results flagged for a closer look

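In groups of 4 arrays, a single value that lay far from the other 3 was found in 3 of 71 groups of varying member probe sets (4.23%), where chance gives about 5%. These were Slc38a4 in CN, where replicate 3 read 10.67 and the nearest other array 10.36, Bckdhb in LP-R, where replicate 4 read 10.53 and the nearest 10.43, and probe set 1389611_at of Vldlr in LP-R, where replicate 3 read 10.30 and the nearest 10.27.

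The change of Slc38a4 in LP and that in LP-R differed by -0.30, with an exact permutation p of 0.0445 over 2450 splits before adjustment and 0.828 after adjustment over all probe sets.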

How the results depend on the processing

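The 12 member probe sets called in LP against CN were the same 12 after quantile normalization, median centring, removal of the dimmest 25%, a pooled null and pairs that share no array. The last 2 alternatives and a term for replicates 1 and 2 against 3 and 4 were chosen after seeing the data. The count was 0 with limma, with limma's trend and robust prior, with array weights and with that term, 1 over varying probe sets only, and 7 to 11 when 1 array was left out. For LP-R against CN-R the count of 1 became 0 with every limma fit, over varying probe sets only, at a pfp up to 0.01 and with pairs that share no array, 2 with CN-R replicate 4 counted as LP-R, and 0 to 1 when 1 array was left out. The alternatives that alter the size of a change (scaling, array weights, an array left out and the like) gave 145 changes of called probe sets that differed from the first value by over 0.0001, of which 0 reversed sign and 104 kept the call. The median change was -3.6e-06 in LP and -4.3e-07 in LP-R over all members with the nearly constant ones included, -0.0404 in LP-R with CN-R replicate 4 counted as LP-R, and ran from -0.0737 to -0.0290 in LP and from -0.0399 to -0.00380 in LP-R when 1 array was left out. Array-wide LP calls were 51.5% higher, 45.3% without the dimmest probe sets, 35.5% over varying ones and 58.2% within replicate numbers, and from 14.2% to 78.9% when 1 array was left out.

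The labels do not say that the replicate numbers pair the samples, and the main tests did not pair them. Same-numbered arrays deviated together with r of 0.55, -0.03, 0.17 and 0.40 in LP and CN and 0.04, 0.19 and 0.22 in LP-R and CN-R. For arrays of different number r ran from -0.54 to 0.33 in LP and CN and from -0.32 to 0.28 in LP-R and CN-R. What the numbers mark was not tested. With the replicate block, limma called 0 members in both comparisons, and rank products within replicate numbers called 12 in LP (11 of them shared) and 2 in LP-R, Atf3 and Cebpb, both lower.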
